A study of Drosophila melanogaster with 6 samples.

Results

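The T4/T5 subtype selector genes examined here were 5 transcription factor genes: bi, grn, TfAP-2, Lim1 and pb. They were chosen as genes listed as separating T4 from T5 neurons, or the a/b from the c/d subtypes, in the fly visual system. Their activity in these neurons was not measured here. The intervals assigned to them were all those of the deposited interval list that overlapped the annotated gene body, or lay within 20 kb of it, by at least 1 bp. This gave 16 of the 2396 intervals in the list, and no interval belonged to more than 1 of the 5 genes.

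The list came from Targeted DamID, in which a defined set of cells makes small amounts of the bacterial adenine methylase Dam, alone or joined to another protein, so that GATC sites close to its contacts with chromatin become methylated. One group of 3 samples carried UAS-Dam-DRGX, which encodes Dam fused to the Paired-like homeodomain factor Drgx, and the other group of 3 samples carried UAS-Dam alone. Both groups were otherwise labelled UAS-CD8-GFP/tubGal80ts with R23G12-Gal4 as the driver, so all samples also made a membrane GFP and a temperature-sensitive repressor of Gal4. The labels place every sample in T4/T5 neurons, from larvae reared at 18 °C and shifted to 29 °C for 24 h at the larval stage L3. The transgene was expressed wherever R23G12-Gal4 is active, and DNA was taken from whole brains, so the list does not separate T4 from T5 neurons or one subtype from another.

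The authors deposited a single list for the series, with 1 score and 1 false discovery rate per interval and no sample name. It was taken here as the outcome of the Dam-Drgx samples against the Dam samples. No value per sample accompanied it, so no spread between replicates can be set beside any interval, the read depth is unknown, and no test over samples was possible. The score is the authors' own value per interval and its scale is not stated. Scores are used below only for descriptions and ranks inside this list. An interval near a gene is a statement about position, and DamID signal does not show that Drgx changes the activity of that gene.

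T4 and T5 neurons are the cells of the fly visual system in which responses first depend on the direction of motion. T4 dendrites lie in the medulla and serve the pathway for brightness increments, while T5 dendrites lie in the lobula and serve the pathway for decrements. Within each type, subtypes a, b, c and d prefer different directions of motion and send their axons to different layers of the lobula plate. In the progenitors of the c/d subtypes, Wingless and Dpp signalling switches on bi, whose T-box product Omb is passed on to the neurons and represses dac there. Combinations of transcription factors that stay on after the last division, often called terminal selectors, then keep the subtypes apart.

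Each of the 5 genes had at least 1 interval within 20 kb, but at this distance 47.0% of all 13922 protein-coding genes had one. Longer genes have wider windows and met intervals more often. In the length class of 20 to 50 kb, which holds grn, TfAP-2, Lim1 and pb, 69.5% of 705 genes had an interval within 20 kb. In the class of 50 kb and over, which holds bi, the share was 81.8% of 307 genes. The presence of an interval within 20 kb is therefore common among genes of this length and does not set the 5 genes apart. The number of intervals differed more: bi had 5, TfAP-2 and Lim1 had 4 each, grn had 2 and pb had 1.

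At least 4 intervals were found at 8.09% of the genes of 20 to 50 kb, the class of TfAP-2 and Lim1. With 49.3 kb, however, Lim1 lies at the upper edge of that class, where windows are widest. Among the genes of 50 kb and over, the class of bi, 10.1% had exactly 4 intervals and a further 14.7% had at least 5. So 4 or more intervals were more common in that class than among the genes of 20 to 50 kb. At least 2, the number at grn, were found at 38.3% of its class. The median gene of 20 to 50 kb had 1 interval, as pb did, and the median gene of 50 kb and over had 2. The class maxima were 9 and 14 intervals. These shares are a description of the list, and no test was made of the difference between the 5 genes and the rest.

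**Figure D1:**
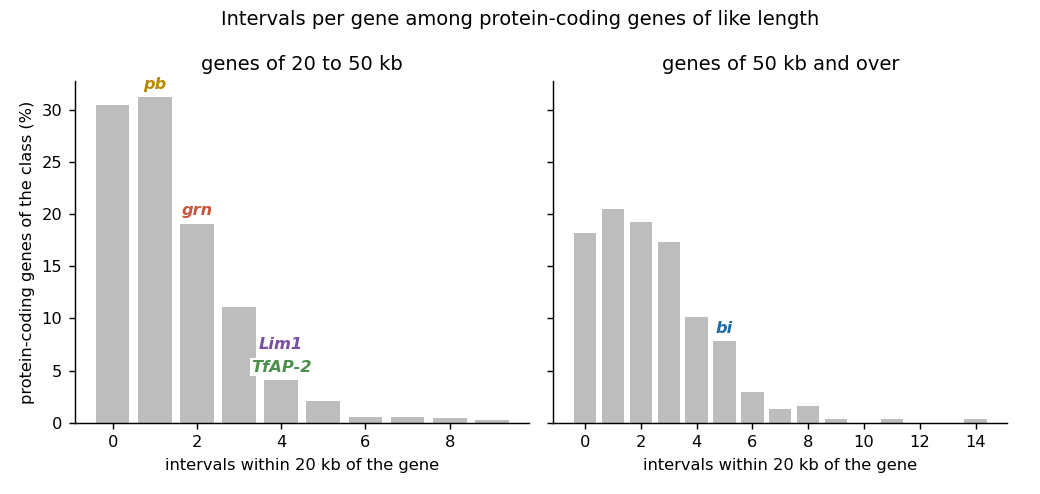
Share of protein-coding genes (vertical axis, % of the class) by the number of listed intervals within 20 kb (horizontal axis), for genes of 20 to 50 kb (left, 705 genes) and of 50 kb and over (right, 307 genes), with the subtype selector genes written at their number. pb (1 interval) and grn (2) sit among the common numbers, while TfAP-2 and Lim1 (4 each) and bi (5) sit to the right of most genes of their class. The length of Lim1, 49.3 kb, is near the upper limit of its class.

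Relative to the length examined, the gene bodies and flanks of the 5 genes spanned 417 kb and held 3.84 intervals per 100 kb, against 1.79 per 100 kb over the 6 chromosome arms. Pooled over all genes of a class, the windows of genes of 20 to 50 kb held 1.99 intervals per 100 kb and those of genes of 50 kb and over held 1.74. TfAP-2 had the densest window with 6.01 per 100 kb, followed by Lim1 with 4.48, bi with 4.43 and grn with 2.70. The window of pb, with 1.35 per 100 kb, was below the level of the arms. Intervals covered 9.46% of the window of TfAP-2, 7.42% of that of Lim1, 7.27% of that of bi, 4.52% of that of grn and 2.57% of that of pb, against 3.27% of the arms.

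Of the 16 intervals, 8 lay wholly inside the body of a subtype selector gene and 8 lay in the flanks. An interval inside the body was found at 4 of the 5 genes, all but pb. Among all protein-coding genes this share was 8.32%, among genes of 20 to 50 kb it was 47.1%, and among genes of 50 kb and over it was 70.4%. One flank interval overlapped another protein-coding gene, which brought the intervals over protein-coding bodies to 9 of 16 (56.2%), against 65.3% of the 2394 intervals on the 6 arms. The gene table gives neither strand nor exons, so distances are given to the gene body or to its nearer end, and exons, introns and UTRs were not analysed here.

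**Figure D2:**
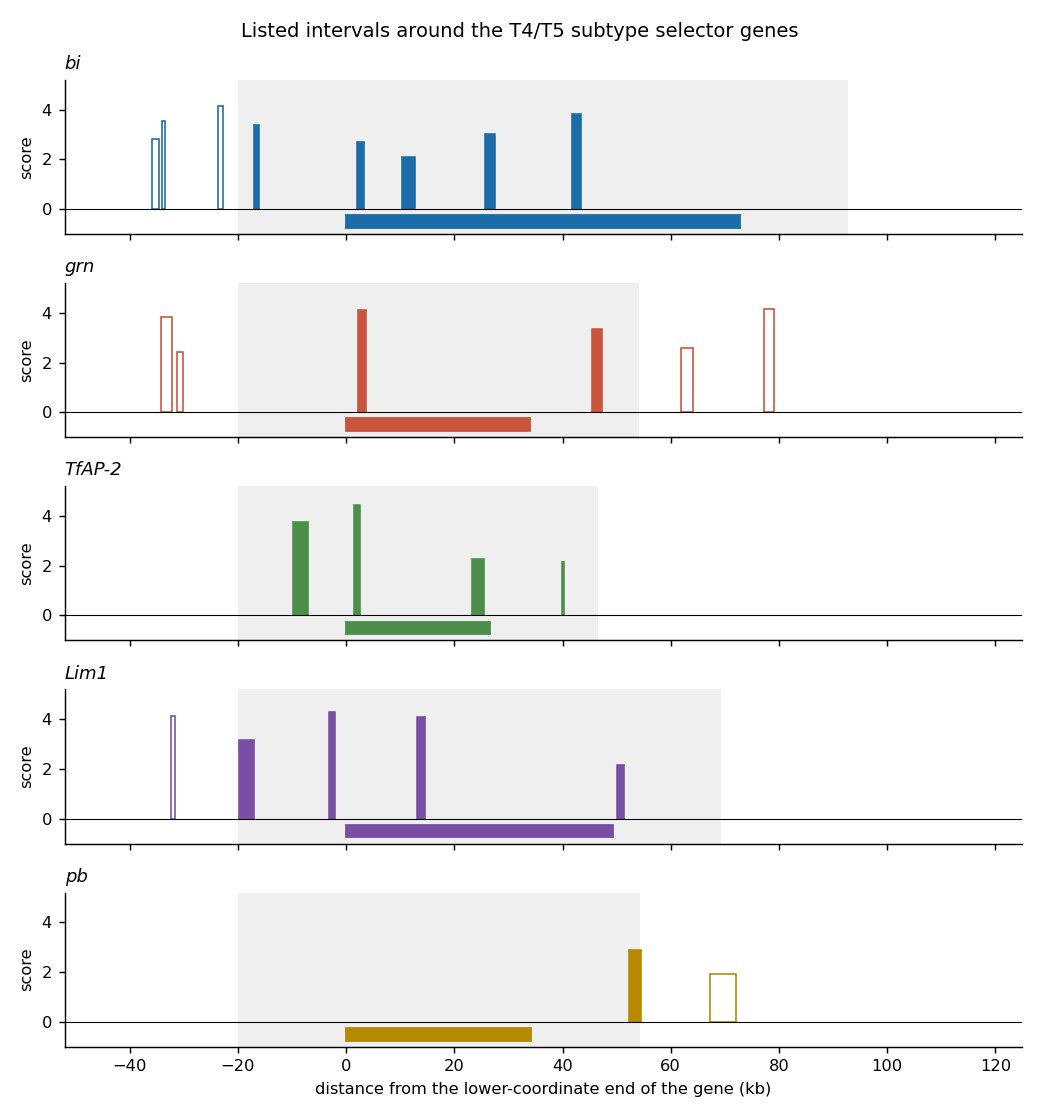
Intervals around each gene, drawn to scale as boxes whose width is the interval's width and whose height is the deposited score (vertical axis), against the distance from the lower-coordinate end of the gene in kb (horizontal axis). The bar under each axis is the gene body, grey marks the body with its 20 kb flanks, filled boxes are the 16 assigned intervals and open boxes are intervals 20 to 50 kb away. Filled boxes stand over the bodies of bi, grn, TfAP-2 and Lim1 and none over that of pb.

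The gene bi (CG3578) encodes the T-box factor Optomotor-blind, the relay between Dpp signalling and the c/d fate. It spans chrX:4412856-4485647 in Release 6 coordinates, a body of 72.8 kb with 7 annotated transcripts, and is the only protein-coding gene of its window. Of its 5 intervals, 4 lay in the body and 1 outside it on the lower-coordinate side. All of them also lay inside the long non-coding RNA gene lncRNA:CR32773, which spans 223.7 kb and encloses bi completely. That RNA gene held 6 intervals in all, 5 of them those assigned to bi.

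The interval with the highest score at bi was chrX:4454564-4456272, 1709 bp wide, with a score of 3.83 and a false discovery rate of 2.46e-12. Its midpoint lay 58.5% along the body, and 19.2% of the list scored higher. The next was outside the body at chrX:4395899-4396751, 853 bp wide and 16105 bp from the gene, with a score of 3.40 and a rate of 0.000152. Thus the second-highest score at this locus belonged to a flank interval and not to one in the body.

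The 3 remaining intervals of bi had lower scores. At chrX:4438611-4440321, 36.6% along the body, the interval was 1711 bp wide and scored 3.00 with a rate of 8.12e-06. At chrX:4414815-4416253, 1959 bp inside the lower-coordinate end, it was 1439 bp wide and scored 2.69 with a rate of 0.00011. The interval at chrX:4423166-4425652, 15.9% along the body, was the widest of the locus with 2487 bp and had its lowest score, 2.10, with a rate of 0.00293. The last 49.4 kb of the window on the higher-coordinate side, which include 29375 bp of the gene, held none. The nearest protein-coding gene of each of the 5 was bi itself, with CG3626 or CG3556 next, at least 24763 bp away.

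The gene Lim1 (CG11354) encodes a LIM-homeodomain factor, known in the fly for patterning the distal leg and the antenna. It spans chrX:8756539-8805804, a body of 49.3 kb with 2 annotated transcripts, and no other gene of any kind is annotated in its window. Its 4 intervals were spread over both flanks and the body. The highest score, 4.29, belonged to the interval chrX:8753447-8754439, which lay 2100 bp outside the lower-coordinate end, was 993 bp wide and had a rate of 4.79e-07.

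Inside the body of Lim1 a single interval was listed, chrX:8769687-8771214, 28.2% along the gene and 1528 bp wide, with a score of 4.08 and a rate of 8.12e-06. Another interval, chrX:8736772-8739430, lay 17109 bp from the gene, was 2659 bp wide and scored 3.16 with a rate of 0.00883. It was nearer to CG1789, 15269 bp away, than to Lim1. The last, chrX:8806517-8807964, began 713 bp beyond the higher-coordinate end, was 1448 bp wide and had a score of 2.16 with a rate of 0.00156. Of the 4, therefore, 2 scored above 4 and lay in the body or within 2100 bp of it, while the interval nearest to the gene on the other side was among the lower scores of the list, with 82.0% of intervals above it. Between the intragenic interval and the one beyond the higher-coordinate end, 35.3 kb held none.

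The gene TfAP-2 (CG7807) encodes the fly member of the AP-2 transcription factor family, known for its part in leg joint and proboscis development. It spans chr3L:21586828-21613349, the shortest body of the 5 genes with 26.5 kb, and 9 other protein-coding genes reach into its window. Both of its intragenic intervals lay close to a gene end. The interval chr3L:21588314-21589373 lay 1486 bp inside the lower-coordinate end, was 1060 bp wide and had a score of 4.43 with a rate of 1.4e-09. This was the highest score at any of the 5 genes, and 6.22% of the list scored higher.

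At the other end of TfAP-2, 1055 bp inside the gene, the interval chr3L:21610136-21612294 was 2159 bp wide and scored 2.29 with a rate of 0.00603. On the lower-coordinate side, chr3L:21577081-21579698 lay 7130 bp from TfAP-2, was 2618 bp wide and scored 3.74 with a rate of 0.000739. Its nearest protein-coding gene was EMC10, 1207 bp away, and it overlapped lncRNA:CR43939. On the higher-coordinate side, chr3L:21626682-21627139 lay 13333 bp from TfAP-2, inside the body of Alg11, was the narrowest of the 16 with 458 bp and scored 2.15 with a rate of 0.00603. So the flank intervals of TfAP-2 were both nearer to another protein-coding gene, and within 5 kb of the body TfAP-2 kept 2 intervals, a high and a low score near opposite ends of the gene.

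The gene grn (CG9656) encodes the GATA factor Grain, known in the fly for axon guidance of motor neurons. It spans chr3R:8147368-8181444, a body of 34.1 kb with 3 annotated transcripts. Its intragenic interval, chr3R:8149587-8151123, lay 2219 bp inside the lower-coordinate end, was 1537 bp wide and had a score of 4.11 with a rate of 1.86e-05, so that 12.1% of the list scored higher. The other interval, chr3R:8192881-8194688, lay 11437 bp beyond the higher-coordinate end, was 1808 bp wide and scored 3.33 with a rate of 0.0012. It overlapped no gene, and CheA84a, 9507 bp away, was nearer to it than grn. Between the pair, 41.8 kb with most of the gene body held no interval.

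The gene pb (CG31481) is the Hox gene proboscipedia of the Antennapedia complex, known for the identity of the adult mouthparts. It spans chr3R:6707800-6742063, a body of 34.3 kb in a crowded window that 11 other protein-coding genes reach. No interval lay in its body, and the nearest one lay 18093 bp away. This single assigned interval, chr3R:6760156-6762360, was 2205 bp wide and scored 2.89 with a rate of 1.23e-05. It lay beyond zen2, zen and bcd as seen from pb, overlapped lncRNA:CR45593, and was nearest to Ama, 233 bp away, and bcd, 690 bp away. The 72.4 kb of the window before this interval were free of intervals, and 297 bp of it reached past the 20 kb limit.

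Just inside the limit of 20 kb lay the intervals at 18093 bp from pb (score 2.89), 17109 bp from Lim1 (3.16) and 16105 bp from bi (3.40). Just outside it lay those at 22772 bp from bi (4.14), 27830 bp from grn (2.60) and 30059 bp from grn (2.41).

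The scores of the 16 intervals ran from 2.10 to 4.43, within the range of the list from 1.24 to 6.47. Their median was 3.25 and that of the whole list was 2.83. Above the upper quartile of the list, 3.62, lay 6 intervals, and below its lower quartile, 2.31, lay 4. The 6 high ones came from TfAP-2 (2), Lim1 (2), bi (1) and grn (1), and the 4 low ones from TfAP-2 (2), Lim1 (1) and bi (1). TfAP-2, Lim1 and bi thus had intervals at both ends of the list's scores, and pb had an interval close to the list's median. In the gene bodies the median score was 3.42 with a range from 2.10 to 4.43, and in the flanks it was 3.25 with a range from 2.15 to 4.29, so the scores in bodies and flanks overlapped over nearly their whole range.

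**Figure D3:**
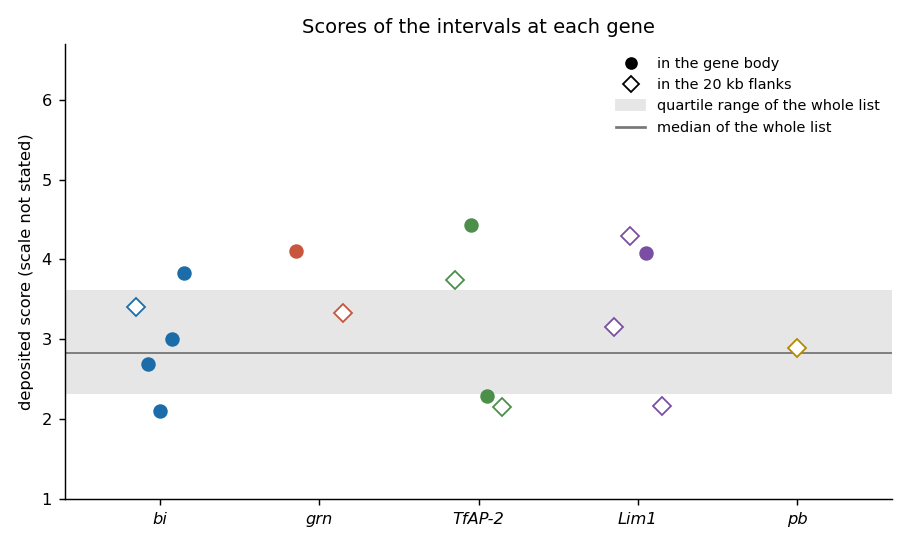
Deposited score (vertical axis, scale not stated) of each of the 16 intervals by gene (horizontal axis), with filled circles for intervals in the gene body and open diamonds for the 20 kb flanks. The grey band runs from 2.31 to 3.62, the quartiles of the whole list, and the line marks its median of 2.83, with 6 of the 16 points above the band and 4 below it.

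The intervals at the subtype selector genes were about as wide as those of the list. Their median width was 1623 bp, against 1617 bp for the list, with a range from 458 to 2659 bp. The false discovery rate took 140 distinct values in the list and 14 among the 16 intervals. A bi interval and a Lim1 interval shared the rate of 8.12e-06, with scores of 3.00 and 4.08, and 2 TfAP-2 intervals shared 0.00603. Intervals with the same rate can thus differ in score. Neighbouring intervals of the same gene were separated by 6913 to 41758 bp, with a median of 14388 bp over 11 gaps. No gap was short enough for intervals of the same gene to be joined at a distance of 1 kb.

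**Figure D4:**
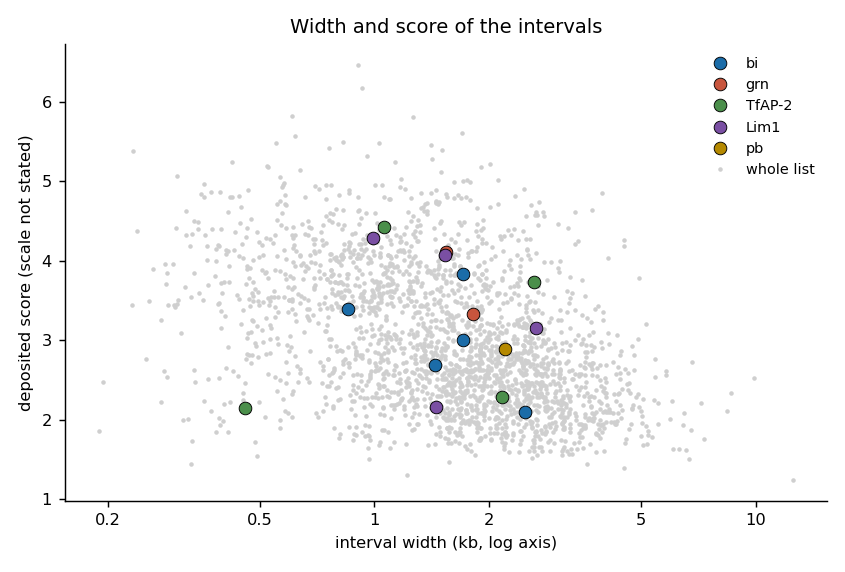
Width in kb (horizontal axis, log scale) and deposited score (vertical axis) of the 16 intervals at the subtype selector genes, coloured by gene, over all 2396 intervals of the list in grey. The 16 points spread from 0.458 to 2.659 kb and from 2.10 to 4.43 in score, inside the cloud of the list.

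The relatives of the 5 genes were counted in the same way, within 20 kb, where 47.0% of protein-coding genes had an interval. Their lists were chosen with earlier results of these data known, and neighbouring relatives share intervals. Among the T-box genes, 6 of 8 had an interval, with a median of 1 per gene. The others were Doc1 with 3, and Doc2, Doc3, mid and byn with 1 each, and none was listed for org-1 and H15. The interval at Doc2 and Doc3 was the same one. In the body itself bi alone of the 8 T-box genes had intervals, and bi is the longest of them with 72.8 kb, while the others measured 2.1 to 12.3 kb.

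Among the GATA genes, grn alone of 5 had an interval within 20 kb. The body of grn spans 34.1 kb, and at pnr, srp, GATAd and GATAe, which span 5.5 to 17.9 kb, none was listed. Among the LIM-homeodomain genes, which span 5.2 to 49.3 kb, all 7 had at least 1 interval, with a median of 2 per gene. The share with an interval was 47.0% of all protein-coding genes. It was 69.5% among genes of 20 to 50 kb, the class of Lim1, Lim3, ap and tup. Lim1 had the most with 4, tup had 3, Lim3, ap, Awh and CG4328 had 2 each and Lmx1a had 1. The highest score at Lim1 was 4.29, below the highest of this family, 4.90, at an interval inside Lim3.

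Among 12 genes of the Antennapedia and Bithorax complexes, which span 1.0 to 103.0 kb, 9 had an interval, with a median of 1 per gene. The share among all protein-coding genes was 47.0%. The interval assigned to pb was also within 20 kb of zen2, zen and bcd, so 4 of these 9 genes rest on it, 3 of them on it alone. Antp had 5 intervals and abd-A had 4, and both had at least 1 in the body. Scr and ftz had 3 each, all 3 of them the same intervals. None was listed within 20 kb of lab, Ubx or Abd-B. The 12 genes held 14 distinct intervals, and their median score was 2.50, below the median of the list. Densities of the 4 families were also taken, with the selector genes included and shared intervals counted at each gene. Per 100 kb of window, the LIM-homeodomain genes held 3.73 intervals, close to the 3.84 at the 5 selector genes. The T-box genes held 2.73, the genes of the 2 complexes 2.54 and the GATA genes 0.706.

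The relay that leads to bi and from it to dac was counted as 9 genes. Of these, 5 had an interval and 4 (wg, dpp, sax and Mad) had none within 20 kb. Among all protein-coding genes, 47.0% had an interval at this distance. The windows of the 9 relay genes held 1.59 intervals per 100 kb, against 1.79 per 100 kb over the chromosome arms. These values do not set the relay genes apart, and no test of the difference was made. The Dpp receptor genes tkv and put had 1 and 2 intervals in the body, with highest scores of 2.65 and 4.11. The gene brk, which encodes a repressor of Dpp targets, had 2, the nearer one 6841 bp away with a score of 4.23. Next to dac, the gene that Omb represses, 2 intervals were listed at 4986 and 2127 bp from the body, with scores of 2.80 and 4.76. The score of 4.76 exceeded each of the 16 scores at the subtype selector genes. Med, which encodes a Smad protein, had 1 interval 14093 bp away with a score of 2.95. The median was 1 interval per gene.

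The 5 subtype selector genes had a median of 4 intervals per gene, in windows of 66.5 to 112.8 kb. The median was also 4 for 9 genes of the T4/T5 lineage that act in neural progenitors or across T4/T5 neurons, but in narrower windows of 41.2 to 77.4 kb. Per 100 kb of window this came to 3.84 intervals at the subtype selector genes and 7.18 at the lineage genes. Of the 9, 5 are under 5 kb long, a length class in which the median gene had 0 intervals within 20 kb. All 9 of them (ato, ase, dpn, tll, D, acj6, Sox102F, Drgx and N) had at least 2 within 20 kb. So had bi, grn, TfAP-2 and Lim1. The share was 18.8% of all protein-coding genes, most of which are shorter than the selector genes. It was 38.3% among genes of 20 to 50 kb, the class of grn, TfAP-2, Lim1, acj6, Sox102F, Drgx and N. The median gene of 50 kb and over, the class of bi, had 2. The short genes ato and dpn, of 1.2 and 3.4 kb, had 6 intervals each, all outside the body. The median score was 3.25 for the 16 intervals at the subtype selector genes and 3.56 for the 36 intervals at these 9 genes. No test of these differences was made. At the Drgx gene itself 4 intervals were listed within 20 kb, 3 of them in the body. Whether reads of the Dam-Drgx transgene contribute to them was not tested.

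**Figure D5:**
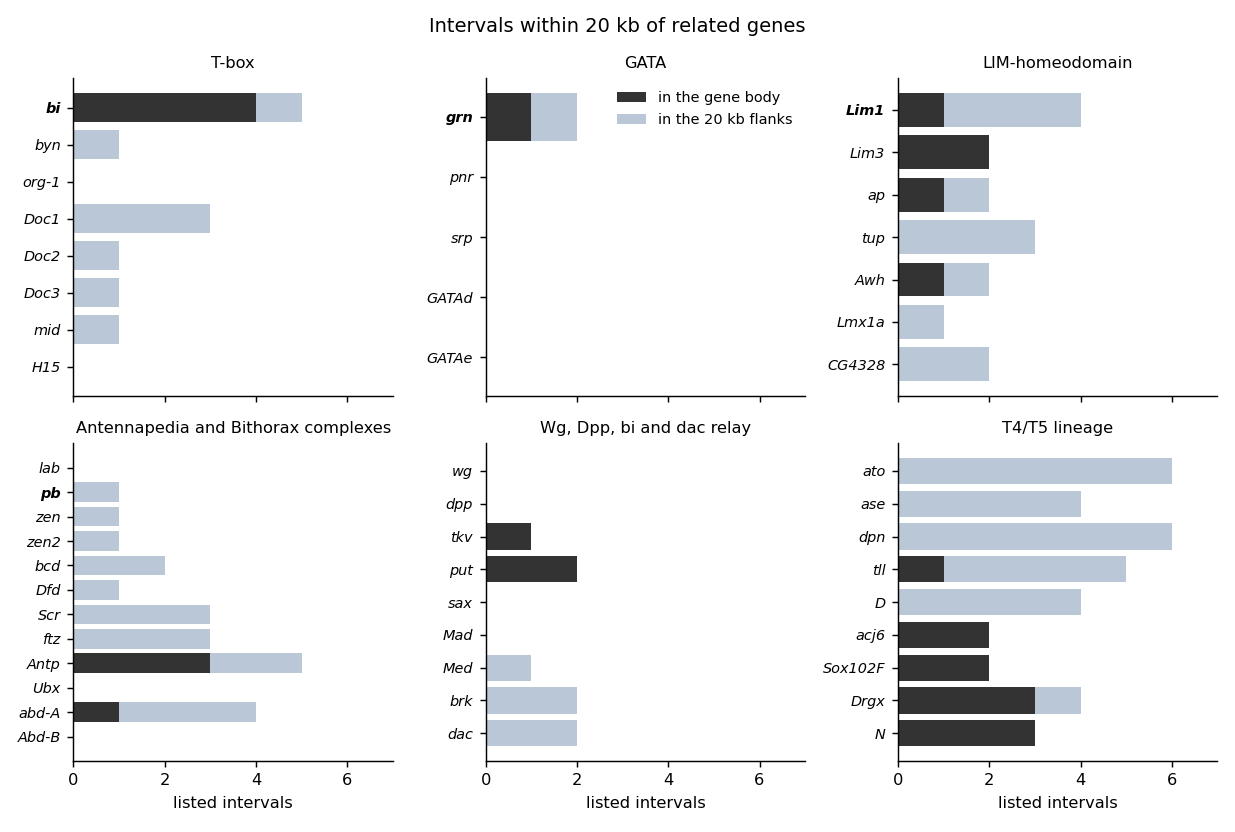
Number of listed intervals (horizontal axis) in the gene body (dark) and in the 20 kb flanks (light) of genes related to the subtype selector genes (vertical axis, the selector genes in bold), in 6 lists. grn stands alone in the GATA list, all 7 LIM-homeodomain genes have bars, and neighbouring genes of a complex share intervals.

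Read by nearest protein-coding gene, 11 of the 16 intervals stayed with the gene they were assigned to and 5 did not. The 5 were the flank interval of grn (nearest CheA84a), both flank intervals of TfAP-2 (EMC10 and Alg11), the outermost interval of Lim1 (CG1789) and the interval of pb (Ama). At bi all 5 remained, at Lim1 3 of 4, at TfAP-2 2 of 4, at grn 1 of 2 and at pb none. The windows of bi and Lim1 hold no other protein-coding gene, while those of grn, TfAP-2 and pb hold 2, 10 and 12 such genes, the selector gene included.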

How the data were processed

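The labels describe 3 Dam-Drgx and 3 Dam samples of genomic DNA. The deposited list has a score column, whose making and scale are not given in the sources used here, and a false discovery rate, deposited by the authors as text per interval. Aligner, peak caller and handling of replicates are likewise not given in the sources used here. The build is BDGP6, per the submitters' processing notes, and genes came from the RefSeq table of the Release 6 assembly, where all 5 genes matched by symbol. CG32105 matched Lmx1a by synonym. Starts were raised by 1 from the BED convention. An interval was assigned when at least 1 bp met the gene body or its 20 kb flanks. Background shares cover the 13922 protein-coding genes of 6 arms.

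No test was run, because the list holds no sample values. The counting was tested on simulated data. Alternatives changed the distance, the score or rate threshold, joining, the overlap required and the assignment to genes. The planned distances to gene starts became distances to the nearer gene end, and the planned motif counts in promoters were not made, since no sequence was used here. The members and lists were chosen with earlier results of these data known. Genes named by rule are the 5 members, the genes nearest to their intervals and the list genes. The next-nearest genes CG3626 and CG3556, and genes at intervals 20 to 50 kb away, such as puc, mir-993 and lncRNA:CR45551, were named after their values were seen. Python 3.11.15, numpy 2.4.6, pandas 2.3.3 and matplotlib 3.10.9 were used.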

Additional observations from a re-analysis of the deposited data

How the results depend on the processing

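With other distances than 20 kb, the 16 intervals became 8 in gene bodies alone, 9 at 1 kb, 10 at 5 kb and 25 at 50 kb, while the share of protein-coding genes with an interval was 8.32% in bodies, 10.9% at 1 kb, 19.9% at 5 kb, 30.3% at 10 kb and 77.8% at 50 kb. At bi the count was 8 at 50 kb, where the highest score was 4.14. At grn it was 1 in the body and up to 10 kb, and 6 at 50 kb, with a highest score of 4.17. At TfAP-2 it was 2 from the body to 5 kb. At Lim1 it was 1 in the body and 2 at 1 kb, with a highest score of 4.08 in both. At pb it was 0 from the body to 10 kb, and 2 at 50 kb. Among the 1198 highest-scoring intervals of the list, bi had 3 and TfAP-2 had 2, and 28.2% of protein-coding genes had an interval. With a false discovery rate of at most 0.001, 10 intervals were left, with 2 at TfAP-2, 2 at Lim1 and 1 at grn, and the share was 31.6%. Counting only intervals nearest to the gene left 2 at TfAP-2, 1 at grn and 0 at pb. With the midpoint, or with at least 50% of the interval, inside the window, the share was 45.7%. These settings by their construction admit fewer or more intervals. Of the 133 recomputed values, the other 91 stayed within 1.5 times the count, at the same highest score or within the 95% binomial interval of the share. This rule let a fall from 16 to 11 intervals, or from 5 to 4 genes, count as unchanged. Some of the 91 could not move. No gap at the 5 genes was short enough for joining, and each gene's highest score was above the list's median of 2.83. No paired analysis was possible because the list holds no value per sample, and for the same reason no replicate could be left out. Depth is unknown, so a gene without an interval is not shown to lack Drgx.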

Other observations

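Between 20 and 50 kb from the 5 genes lay 9 further intervals, 3 near bi, 4 near grn, 1 near Lim1 and 1 near pb, and none near TfAP-2. On the lower-coordinate side of grn, 2 intervals lay inside puc, which encodes a phosphatase of the JNK pathway, with scores of 3.84 and 2.41. On its other side, an interval overlapping lncRNA:CR45551 at chr3R:8224613-8226472 had a score of 4.17 and a false discovery rate of 5.04e-13. Near Lim1, the interval chrX:8724141-8725000 overlapped lncRNA:CR43297, 31539 bp from Lim1 and 2638 bp from CG1789, with a score of 4.11 and the lowest rate among the 16 assigned and these 9 intervals, 7.44e-14. Near bi, an interval 22772 bp away inside lncRNA:CR32773 had a score of 4.14, above all 5 assigned to bi, with a rate of 0.0057. It was nearer to CG3626, 18117 bp away, than to bi. The interval near pb, chr3R:6775097-6779794, was the widest of these 9 with 4698 bp and had a score of 1.94, with Ama, 9836 bp away, and Dfd, 12042 bp away, as its nearest protein-coding genes. It overlapped the microRNA gene mir-993 and a pair of long non-coding RNA genes.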
